A study of Mus musculus with 6 samples.

Results

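The genes described here belong to the TGF-beta and activin pathway: the ligand genes Tgfb1, Tgfb3 and Inhba, the receptor genes Tgfbr1 and Tgfbr2, the signal transducer Smad3, the inhibitors Smad7, Ski and Skil, and the target Tgfbi. They were chosen by name, and are 10 of the 20649 genes in the count matrix. The cells came from CT26 tumors, a mouse colon carcinoma line grown subcutaneously on the right flank of BALB/c mice. Tumors were injected directly, 3 times on alternate days, with exosomes carrying an antisense oligonucleotide, either the control exoASO-Scramble (3 tumors) or exoASO-STAT6, directed at Stat6 (3 tumors), and were taken 24 h after the final injection. CD45-positive cells were enriched and sequenced with the 10x 3′ chemistry. The barcodes of the 6 libraries carry the suffixes 3 to 8, which match no sample label. Treatments were therefore not compared, and the libraries below mix both treatments in an unknown order. All values describe 1 pooled set of 9235 barcodes, so no p-value is given.

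TGF-beta is secreted bound to a latency peptide and must be released before it can act. Activin A is a dimer of the subunit encoded by Inhba, and signals through its own receptors to the same SMAD proteins. TGF-beta binds the type II receptor (Tgfbr2), which activates the type I receptor (Tgfbr1). The activated type I receptor phosphorylates SMAD2 and SMAD3, which join SMAD4 and bind DNA. Smad7 is induced by the pathway and blocks its receptors, while Ski and Skil are co-repressors that hold SMAD-bound genes silent until signalling leads to their degradation. Tgfbi encodes a secreted matrix protein named for its induction by TGF-beta. In tumors the pathway is known for restraining T cells and NK cells and for shaping macrophages and matrix.

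Promoters are shown for Inhba, Tgfbr2 and Tgfbi, a ligand, a receptor and a target whose levels vary among the macrophage barcodes described below. RefSeq promoters (GRCm38.p6), running from 250 bases before to 50 bases after the annotated start, were matched for 7 of the 10 members, and Tgfb3, Skil and Smad7 were not matched. Inhba lies at chr13:16011601-16011900 (plus strand), Tgfbr2 at chr9:116175314-116175613 (minus strand) and Tgfbi at chr13:56609336-56609635 (plus strand). Each sequence is written 5′ to 3′ on the gene's strand. Capitals mark the core letters bound by SMAD proteins, CAGAC, or GTCTG where the match is on the other strand.
Inhba: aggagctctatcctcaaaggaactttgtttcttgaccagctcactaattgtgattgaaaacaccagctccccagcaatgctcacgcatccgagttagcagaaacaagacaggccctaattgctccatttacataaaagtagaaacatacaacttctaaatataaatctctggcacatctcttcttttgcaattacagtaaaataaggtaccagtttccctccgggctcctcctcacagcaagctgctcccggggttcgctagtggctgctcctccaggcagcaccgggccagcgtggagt
Tgfbr2: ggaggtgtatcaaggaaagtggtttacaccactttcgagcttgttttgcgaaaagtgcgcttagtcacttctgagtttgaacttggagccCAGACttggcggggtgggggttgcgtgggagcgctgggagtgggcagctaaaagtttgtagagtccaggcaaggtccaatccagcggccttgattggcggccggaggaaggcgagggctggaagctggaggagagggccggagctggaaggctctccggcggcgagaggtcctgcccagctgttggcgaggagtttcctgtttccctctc
Tgfbi: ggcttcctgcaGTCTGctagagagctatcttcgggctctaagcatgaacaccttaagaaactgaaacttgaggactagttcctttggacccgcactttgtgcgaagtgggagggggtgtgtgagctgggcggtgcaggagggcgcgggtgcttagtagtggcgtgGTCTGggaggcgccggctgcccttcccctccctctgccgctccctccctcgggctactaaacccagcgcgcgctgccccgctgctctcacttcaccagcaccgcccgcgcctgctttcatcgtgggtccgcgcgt
The Inhba window holds no match, Tgfbr2 holds 1 at 160 bases before the start, and Tgfbi holds 2, at 239 and 85 bases before it. Of 32851 promoters of this length, 49.6% hold the 5 letters at least once, so a match is common. The AP-1 letters TGANTCA, searched on both strands, were in none of the matched member promoters and in 7.81% of all promoters.

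Barcodes were placed in groups by the UMIs (distinct captured transcripts) of a few marker genes. Macrophage barcodes (4016) had at least 3 UMIs of Csf1r and Adgre1 together, fewer than 5 of S100a9 and none of Cd3e, Ncr1 or Flt3. S100a9-high barcodes (692) had at least 5 UMIs of S100a9, and Flt3 barcodes (248) at least 1 of Flt3. CD8 T (210), Foxp3 T (37) and NK (352) barcodes held at most 1 UMI of Csf1r and Adgre1 together. CD8 T barcodes had Cd3e and Cd8a or Cd8b1, and none of Foxp3 or Ncr1. Foxp3 T barcodes had Cd3e and Foxp3 and none of Cd8a or Cd8b1, with no limit on Ncr1. NK barcodes had Ncr1, none of Cd3e or Flt3 and fewer than 5 UMIs of S100a9. These labels were checked against other markers. Macrophage barcodes held C1qa at 3052 and Lyz2 at 6234 CPM (UMIs per 1000000). The S100a9-high barcodes did not match a plain neutrophil label, because 82.5% of them also had 3 or more UMIs of Csf1r and Adgre1 and their C1qa level was 2458 CPM, so they are named by their rule. Of the Flt3 barcodes, 40.7% also had 3 or more UMIs of Csf1r and Adgre1. NK barcodes held Gzma at 9544 CPM, and Foxp3 T barcodes held Ctla4 at 1138 and Ikzf2 at 1804 CPM. Of 3 epithelial markers, Krt8 had no UMI in any of the 6 groups, and the list summed to 0.879 to 10.7 CPM in 5 groups and 31.7 CPM in Foxp3 T barcodes. A further 3680 barcodes (39.8%) fell in no group.

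Library totals ran from 11492757 to 33902084 UMIs, and 16 barcode sequences occurred in more than 1 library. Median UMIs per barcode were 12589 in macrophage, 9230 in CD8 T, 7113 in NK and 3048 in Foxp3 T barcodes. Levels below are summed CPM, with 95% exact Poisson intervals in parentheses where given. Ratios carry 95% exact conditional binomial intervals. Both cover counting error only and not the spread between tumors, for which the range over libraries with at least 20 barcodes of the group is given.

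Among the ligands, Tgfb1 was present in every group and Inhba, the activin A subunit, was highest in myeloid barcodes. Tgfb1 was at 224 CPM (209 to 241) in NK, 190 (137 to 257) in Foxp3 T, 155 (152 to 159) in macrophage, 150 (135 to 166) in CD8 T, 147 (140 to 153) in S100a9-high and 113 (103 to 124) in Flt3 barcodes. The macrophage libraries, at 142 to 173 CPM, lay below all 6 NK libraries, at 206 to 254, while the macrophage, CD8 T and S100a9-high ranges overlapped. Inhba was at 197 CPM (189 to 205) in S100a9-high, 165 (162 to 169) in macrophage, 83.6 (75.0 to 92.9) in Flt3, 40.8 (18.7 to 77.4) in Foxp3 T, 37.6 (31.3 to 44.7) in NK and 22.4 (16.8 to 29.1) in CD8 T barcodes. In the macrophage barcodes of suffixes 3 to 8, Inhba was at 109, 130, 65.0, 201, 241 and 199 CPM. The Foxp3 T value rests on 9 UMIs, of which 1 barcode held 8, and the others were at 4.73 CPM (0.120 to 26.3), so its place in this order is not set. In NK barcodes 1 barcode of suffix 6 held 88 of the 128 UMIs, and the others were at 11.8 CPM (8.42 to 16.1). CD8 T barcodes without their top barcode were at 15.5 CPM. By library Inhba was higher in NK than in CD8 T barcodes in 2 of 4 and lower in 2, so their order is not set either. The libraries spread more widely for Inhba than for Tgfb1, and the S100a9-high range, from 17.8 to 235 CPM, covered most of that of the macrophages. Within libraries the S100a9-high level was the lower in 4 of 6, so the order of these groups is not set. Tgfb3 was low throughout, at 7.89 CPM in macrophage and 1.63 to 6.31 in the other groups, and was covered by 954 UMIs in all barcodes.

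The receptors differed in where they were found. Tgfbr2, the ligand-binding receptor, was at 137 CPM (125 to 150) in NK, 113 (110 to 116) in macrophage, 103 (97.9 to 109) in S100a9-high, 101 (88.7 to 114) in CD8 T, 78.1 (69.8 to 87.1) in Flt3 and 36.3 in Foxp3 T barcodes, the last from 8 UMIs. Macrophage libraries ran from 66.2 to 148 CPM and NK libraries from 85.2 to 161, so neighbors in this order overlapped. Tgfbr1, its signalling partner, was at 33.7 CPM (32.2 to 35.2) in macrophage, 31.0 in S100a9-high and 33.9 in Flt3 barcodes, against 9.98 (6.91 to 13.9) in NK and 3.66 (1.67 to 6.95) in CD8 T barcodes. In Foxp3 T barcodes it was at 27.2 CPM (9.98 to 59.2), near the macrophage level. The Foxp3 T value rests on 6 UMIs, the CD8 T value on 9 and the NK value on 34.

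Smad3, which carries the signal to the nucleus, was sparse in every group, from 3.66 CPM in CD8 T to 18.1 in Foxp3 T (4 UMIs) and 17.9 (13.7 to 23.0) in NK barcodes, with 6.57 (5.93 to 7.26) in macrophages. Smad7, the inhibitory SMAD, followed another order: 363 CPM (287 to 451) in Foxp3 T, 172 (156 to 189) in CD8 T, 156 (143 to 170) in NK, 70.5 (62.7 to 79.1) in Flt3, 37.7 (36.2 to 39.3) in macrophage and 32.6 (29.5 to 35.9) in S100a9-high barcodes. The 6 NK libraries, at 138 to 188 CPM, and the 6 Flt3 libraries, at 64.4 to 86.2, all lay above the 6 macrophage libraries, at 29.2 to 48.7. NK and CD8 T ranges overlapped, as did those of macrophage and S100a9-high barcodes. The co-repressor Ski was at 96.8 CPM in macrophage, 86.4 in S100a9-high, 81.6 (48.3 to 129) in Foxp3 T, 61.1 in Flt3, 36.1 in NK and 34.6 in CD8 T barcodes. Its relative Skil was more even, from 102 CPM in CD8 T to 199 in Foxp3 T barcodes with 157 in macrophages.

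Tgfbi, the secreted target, was a myeloid transcript in these barcodes. It was at 587 CPM (580 to 593) in macrophage, 540 (527 to 553) in S100a9-high and 305 (288 to 322) in Flt3 barcodes, and at 122 (80.6 to 178), 45.1 (37.1 to 54.3) and 36.7 CPM (30.5 to 43.7) in Foxp3 T, CD8 T and NK barcodes. In Foxp3 T barcodes 1 barcode held 19 of the 27 UMIs, and the others were at 40.5 CPM (17.5 to 79.8). Macrophage libraries ran from 456 to 856 CPM and NK libraries from 10.5 to 149, with no overlap. Macrophage barcodes held 51.6% of all Tgfbi UMIs, against 41.9% of the UMIs of all genes. They held 41.4% of Inhba UMIs and 24.6% of Smad7 UMIs.

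**Figure D1:**
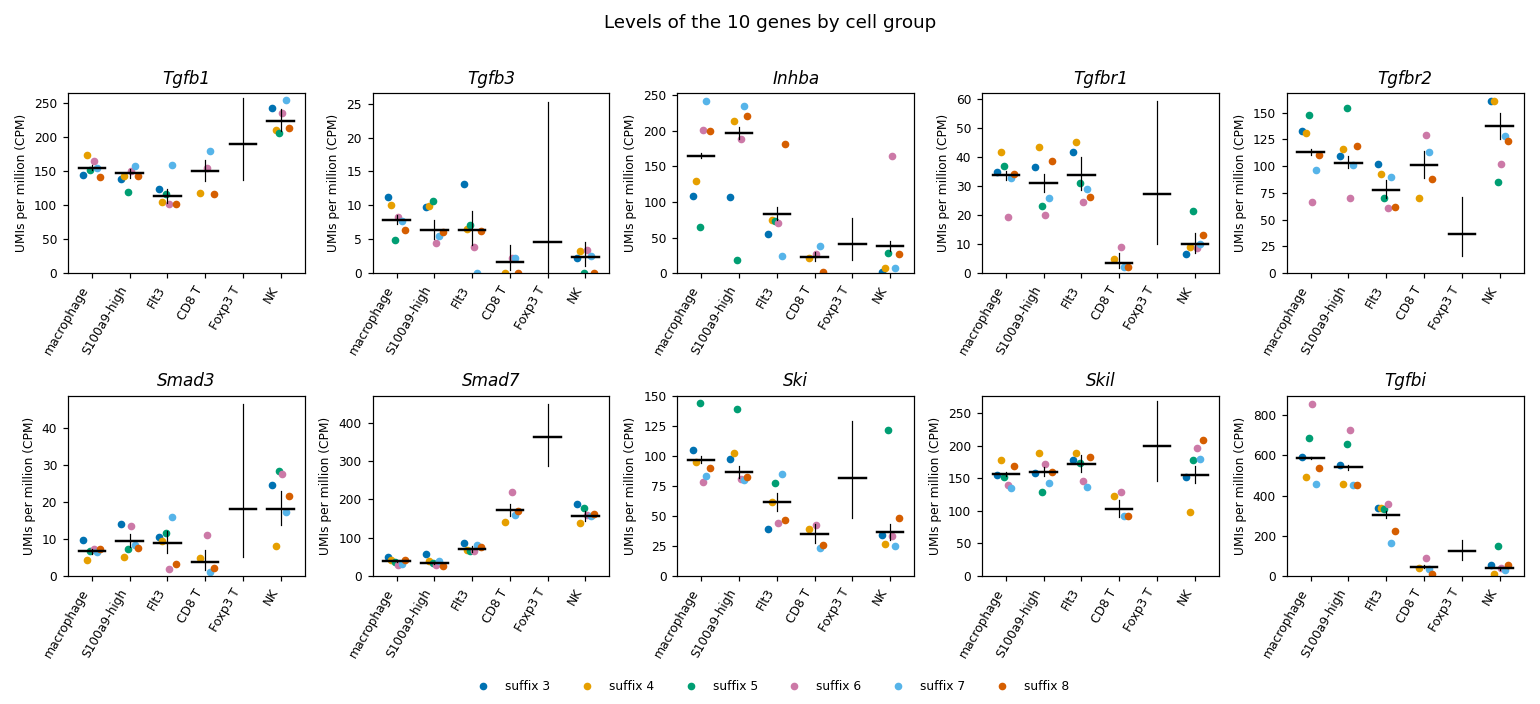
Level of each of the 10 members (summed CPM, vertical axes) in the 6 barcode groups. Bars are pooled levels with 95% Poisson intervals and points are libraries with at least 20 barcodes in the group; Smad7 is highest in the lymphocyte groups (172 CPM in CD8 T, 37.7 in macrophage) and Tgfbi in the myeloid ones (587 in macrophage, 45.1 in CD8 T).

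Macrophage barcodes were next compared by their C1qa level, which marks complement-producing tissue macrophages. Barcodes with at least 20 C1qa UMIs per 10000 (1979) were set against those with fewer than 5 (1557). A gene was called when its pooled level differed at least 2-fold and in the same direction in each library with at least 20 barcodes on both sides, among genes at 10 CPM or more on either side. Of 8 members tested, 1 was called higher and 1 lower in C1qa-high barcodes, beside 5.00% higher and 3.94% lower among all 7786 genes tested. Inhba was 9.20-fold lower (8.71 to 9.71), at 45.8 against 421 CPM. In suffixes 3 to 8 it was at 23.2, 61.2, 15.6, 54.0, 56.7 and 44.1 CPM in C1qa-high barcodes. In C1qa-low barcodes it was at 374, 439, 178, 266, 718 and 544 CPM. Every C1qa-low library lay above every C1qa-high library. Tgfbr2 went the other way, at 143 against 55.8 CPM, 2.57-fold higher (2.40 to 2.76). Its C1qa-high libraries were at 152, 147, 182, 109, 121 and 143 CPM, all above the C1qa-low libraries at 88.3, 57.7, 86.8, 40.7, 42.3 and 54.8.

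The other 6 members tested moved by less than 2-fold across this split. Tgfbr1 was at 38.9 against 23.7 CPM, higher in 6 of 6 libraries with a ratio of 1.64 (1.47 to 1.84). Tgfbi was at 496 against 765 CPM, lower in 6 of 6 with a ratio of 0.648 (0.634 to 0.663). Smad7 was at 30.2 against 49.8 CPM, lower in 5 of 6. Tgfb1 and Skil were lower in 6 of 6 libraries with ratios of 0.853 and 0.812, and Ski was higher in 5 of 6 with a ratio of 1.32. Tgfb3 and Smad3 lay under 10 CPM on both sides and were not tested. Tgfb3 was at 9.65 against 4.44 CPM, higher in 6 of 6 libraries with a ratio of 2.18 (1.69 to 2.84). The median ratio was 0.833 over the 8 members and 1.05 over all genes tested.

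C1qa-high barcodes were deeper, with a median of 16552 UMIs against 9473. Among barcodes with at least 5000 UMIs the ratio was 0.108 for Inhba and 2.62 for Tgfbr2. After thinning each barcode to 1000 UMIs, 3.13% of C1qa-high and 18.6% of C1qa-low barcodes had an Inhba UMI (15.6% and 40.7% without thinning). In 6 steps of C1qa, from under 1 to 40 or more per 10000, Inhba was at 421, 421, 165, 158, 70.1 and 29.6 CPM. Tgfbr2 was at 54.1, 61.6, 78.7, 103, 134 and 150 CPM over the same steps. Inhba was thus level over the lowest pair of steps, and again over the middle pair, whose intervals (148 to 183 and 147 to 170) overlapped. Tgfbr2 intervals overlapped over the lowest pair (50.1 to 58.3 and 54.0 to 70.0), and its levels were higher at the later steps. The share of C1qa-low barcodes also differed between libraries, with 126 C1qa-high and 338 C1qa-low barcodes in suffix 6 against 488 and 160 in suffix 4. Its part in the Inhba levels of whole libraries was not tested.

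**Figure D2:**
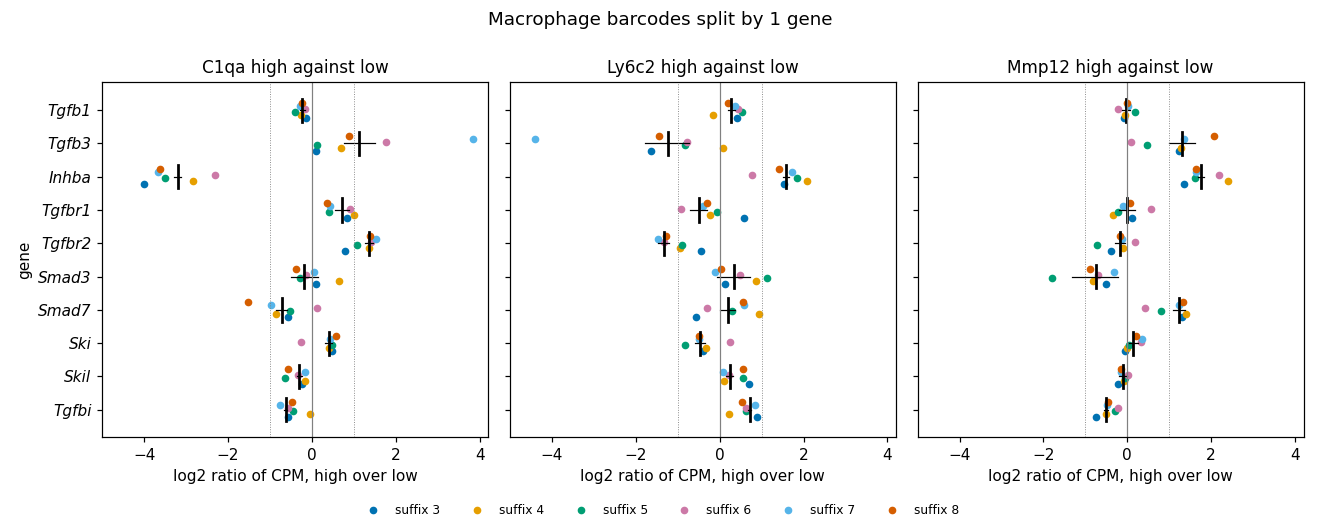
Ratio of each member's level (log2 axis, dotted lines at 2-fold) between macrophage barcodes high and low in C1qa, Ly6c2 or Mmp12. Vertical bars are pooled ratios with 95% intervals and points are the libraries; Inhba is 9.20-fold lower with C1qa, 2.99-fold higher with Ly6c2 (with no set direction among C1qa-low barcodes, at 376 against 462 CPM) and 3.39-fold higher with Mmp12.

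Ly6c2, a marker of monocytes that have recently entered tissue, gave nearly the opposite picture, and the barcodes of the C1qa and Ly6c2 splits overlap. Barcodes with at least 5 Ly6c2 UMIs per 10000 (798) were compared with those under 1 (2501). Of 8 members tested, 1 was called higher and 1 lower, beside 3.01% higher and 5.40% lower among all 7763 genes tested. Inhba was at 325 against 109 CPM, 2.99-fold higher (2.85 to 3.14). The Ly6c2-high libraries ran from 173 to 445 CPM and the Ly6c2-low ones from 48.2 to 139, without overlap. Among C1qa-low barcodes, which made up 642 of the 798 Ly6c2-high ones, the pooled Inhba level was 376 CPM (362 to 391) with high and 462 (444 to 480) with low Ly6c2. By library it was lower with Ly6c2 in 4 of 6 and higher in 2, and the ranges (224 to 539 and 167 to 1222 CPM) overlapped, so no direction is set within that class. Tgfbr2 was at 52.9 against 134 CPM, 2.53-fold lower (2.3 to 2.78) and lower in 6 of 6 libraries. Libraries ran from 37.9 to 102 CPM and from 94.8 to 164, with an overlap through suffix 3. Between the upper and lower of 3 equal tiers of Ly6c2 within each library the Tgfbr2 ratio was 0.563, which does not reach the 2-fold limit. In suffix 3, 313 of 401 macrophage barcodes were Ly6c2-low, so the upper tier there also held some of them. Tgfbi was at 825 against 504 CPM with a ratio of 1.64, higher in 6 of 6 libraries. The other members tested had ratios between 0.706 (Tgfbr1) and 1.21 (Tgfb1).

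Mmp12, a macrophage elastase, marked a smaller class. Barcodes with at least 5 Mmp12 UMIs per 10000 (467) were compared with those under 1 (3256). Of 9 members tested, 3 were called higher and 0 lower, beside 1.35% higher and 0.877% lower among all 7636 genes tested. Inhba was at 405 against 120 CPM, 3.39-fold higher (3.24 to 3.54). In suffixes 3 to 8 it was at 222, 350, 156, 723, 554 and 459 CPM in Mmp12-high and 86.3, 66.0, 50.9, 158, 178 and 147 CPM in Mmp12-low barcodes. Every library was higher on the Mmp12-high side, and only suffix 5, at 156, fell within the Mmp12-low range.

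Smad7 was at 73.2 against 31.3 CPM across the Mmp12 split, 2.34-fold higher (2.12 to 2.58). Its Mmp12-high libraries were at 92.6, 79.8, 56.8, 38.6, 59.5 and 87.4 CPM, all above the Mmp12-low libraries at 25.5 to 37.3. Tgfb3 was at 16.1 against 6.48 CPM, 2.48-fold higher (1.99 to 3.08), from 119 and 303 UMIs. Tgfbi was lower in 6 of 6 libraries at 432 against 616 CPM, with a ratio of 0.702. The median log2 ratio of all genes tested was -0.17 here, and the same 3 members were called after that shift was removed, while calls among all genes went from 103 higher and 67 lower to 161 and 38. Between the upper and lower of 3 equal tiers of Mmp12 within each library, no member reached 2-fold: the ratios were 1.91 for Inhba, 1.62 for Smad7 and 1.58 for Tgfb3. Of the 4016 macrophage barcodes 3256 were Mmp12-low, so the upper tier also held barcodes of the Mmp12-low class. Their part in the smaller ratios was not tested.

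The C1qa and Mmp12 classes were then crossed, a step chosen after seeing the data. Inhba was at 946 CPM (906 to 988) in the 177 barcodes high in Mmp12 and low in C1qa. It was at 311 CPM (301 to 320) in the 1278 barcodes low in both. With high C1qa, the level was 107 CPM (97.3 to 118) for Mmp12-high and 32.9 (30.8 to 35.1) for Mmp12-low barcodes. Inhba was higher with Mmp12 in 6 of 6 libraries within the C1qa-low class (321 to 2152 against 160 to 523 CPM) and in 5 of 5 within the C1qa-high class (37.5 to 228 against 7.93 to 51.8), though both pairs of ranges overlapped. It was lower with C1qa in 5 of 5 libraries among Mmp12-high and 6 of 6 among Mmp12-low barcodes. Tgfbr2 followed C1qa in both, at 52.5 and 133 CPM in Mmp12-high and 56.1 and 147 in Mmp12-low barcodes for low and high C1qa, and was higher with C1qa in 5 of 5 and 6 of 6 libraries. Smad7 was at 90.2 and 59.3 CPM in the Mmp12-high and 41.3 and 25 in the Mmp12-low barcodes. It was higher with Mmp12 in 6 of 6 libraries at low and 5 of 5 at high C1qa. With C1qa it was lower in 5 of 6 libraries among Mmp12-low barcodes. Among Mmp12-high ones it was lower in 3 of 5 and higher in 2, so no direction is set there. Tgfbi was highest where both genes were low, at 800 CPM, and lowest where both were high, at 356. Tgfb3 was at 23.2 CPM where both were high, at 7.72 with C1qa alone high, at 5.99 with Mmp12 alone high and at 3.89 where both were low. Among C1qa-high barcodes Tgfb3 was higher with Mmp12 in 4 of 5 libraries. Among C1qa-low ones it was higher in 2 of 6 and lower in 4, so no direction is set there. For Ly6c2, Inhba was at 137 CPM in Ly6c2-high and 40.1 in Ly6c2-low barcodes when C1qa was high. Only 2 libraries held 20 barcodes of both kinds there, and it was higher with Ly6c2 in both.

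**Figure D3:**
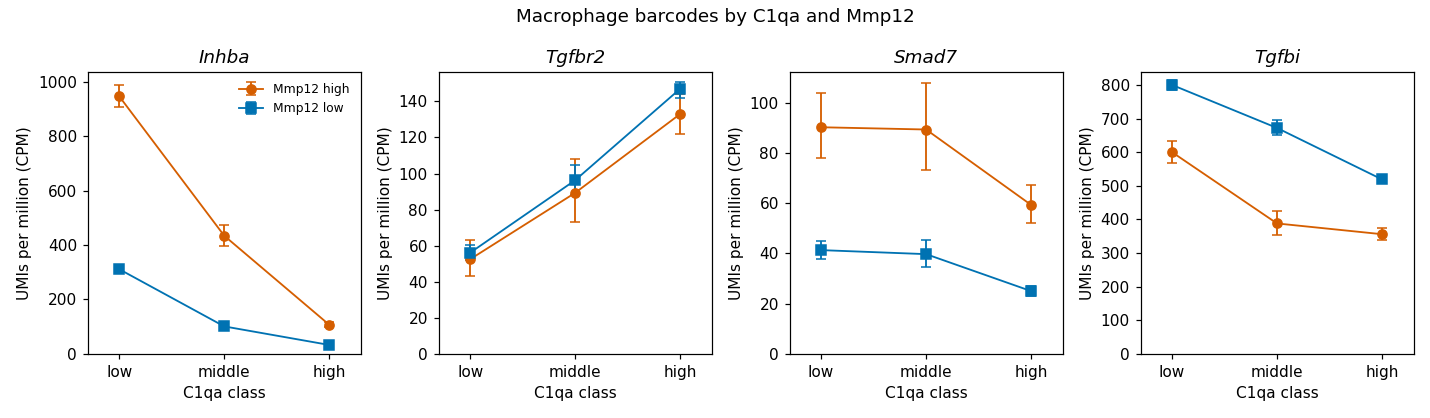
Levels of Inhba, Tgfbr2, Smad7 and Tgfbi (CPM, vertical axes) in macrophage barcodes by C1qa class, with Mmp12-high and Mmp12-low barcodes drawn separately. Bars are 95% Poisson intervals; Inhba runs from 946 down to 107 CPM with Mmp12 and from 311 down to 32.9 without it.

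Within the macrophage group Inhba had the highest ratio of variance to mean of the 10 members. With 3767 barcodes thinned to 5000 UMIs, 79.7% had no Inhba UMI, the highest had 80, and the top 377 barcodes held 88.1% of the UMIs. The variance was 16.1 times the mean for Inhba and 4.08 times for Tgfbi, and between 1.05 and 1.58 times for the other 8 members, where pure counting gives about 1. Tgfbi was missing from 20.5% of these barcodes, and the sparse Tgfb3 and Smad3 from 96.9% and 96.4%. Of all Inhba UMIs in the data, 12.8% lay in Mmp12-high macrophages, which held 5.27% of the UMIs of all genes. Macrophages high in C1qa but in neither the Mmp12-high nor the Ly6c2-high class (1683 barcodes) held 4.43% of Inhba UMIs and 21.4% of all UMIs.

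Against the macrophages, the S100a9-high barcodes had 0 of 8 tested members called, beside 1.17% higher and 0% lower among all 7603 genes tested. Pooled ratios of the 8 tested members ran from 0.864 (Smad7) to 1.19 (Inhba), but Inhba was lower than in macrophages in 4 of 6 libraries, with ratios of 0.977, 1.64, 0.273, 0.936, 0.974 and 1.11 in suffixes 3 to 8. Suffixes 6, 7 and 8 held 181, 149 and 224 of the 692 barcodes, and their share in the pooled ratio was not tested. Smad3 and Tgfb3 lay under 10 CPM on both sides and were not tested. Smad3 was at 9.35 against 6.57 CPM, higher in 6 of 6 libraries with a ratio of 1.42 (1.15 to 1.75), and Tgfb3 was lower in 5 of 6 with a ratio of 0.800, whose interval included equality. Most of these barcodes carried macrophage genes, so the 78 with at most 1 UMI of Csf1r and Adgre1 were also read alone. They held the neutrophil markers Csf3r at 225, Retnlg at 99.4 and Cxcr2 at 88.3 CPM. They also held the monocyte markers Ly6c2 at 591 and Vcan at 171 CPM, against 251 and 72.6 in macrophages, with Lyz2 at 2013 and C1qa at 313 CPM, and the part of monocyte transcripts was not tested. In them Inhba was at 710 CPM (641 to 785), Tgfbi at 410 (358 to 468) and Tgfbr2 at 40.5 (25.4 to 61.3). Only suffixes 6 and 8 held at least 20 of these barcodes, with Inhba at 198 and 1309 CPM. The Inhba level rests on few barcodes: 29 of 78 had a UMI, and 4 held 253 of the 386 UMIs. Without those 4, chosen after seeing the data, it was 263 CPM (220 to 311).

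The Flt3 barcodes, a gate for dendritic cells, also had 0 of 8 tested members called, beside 6.47% higher and 2.59% lower among all 8103 genes. Smad7 was higher in 6 of 6 libraries with a ratio of 1.87 (1.65 to 2.11) to macrophages, and Tgfbi lower in 6 of 6 with a ratio of 0.519 (0.491 to 0.550). Inhba had a ratio of 0.506 and was lower in 5 of 6 libraries. Without suffix 4 Tgfbi was called lower, and without suffix 5 Inhba was. In the 126 Flt3 barcodes with at most 1 UMI of Csf1r and Adgre1, Inhba was at 18.2 CPM (11.7 to 27.1), Tgfbi at 105 (88.7 to 125), Smad7 at 92.6 (76.9 to 111) and Skil at 210 (186 to 236). Tgfbr2 was at 42.5 CPM and Ski at 36.4 in them, against 78.1 and 61.1 in all Flt3 barcodes. C1qa was at 107 CPM in them, against 1243 in all Flt3 barcodes, and the part of macrophage transcripts in the levels of the whole gate was not tested.

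Within the Flt3 gate, barcodes with the plasmacytoid marker Siglech (75) had the highest receptor levels. Tgfbr1 was at 77.0 CPM (62.0 to 94.4) there, against 13.8 (7.14 to 24.1) in the 57 mature barcodes with Ccr7 and Fscn1, 17.4 (10.9 to 26.3) in the 52 type 1 barcodes with Xcr1 and Clec9a, and 17.6 (9.63 to 29.6) in the remaining 64. Tgfbr2 was at 126, 28.8, 68.7 and 74.3 CPM in the same order. Smad7 was at 120, 63.3, 37.9 and 55.4 CPM. Mature barcodes were lowest in Tgfbr2, with an interval (18.6 to 42.5) that did not meet those of the other subsets. For Tgfbr1 the intervals of the mature, type 1 and remaining barcodes overlapped. The plasmacytoid barcodes also held Tgfbi at 371 and Inhba at 107 CPM, above their levels in Flt3 barcodes without macrophage genes, and the part of macrophage transcripts in their receptor levels was not tested. Few libraries held 20 barcodes of any subset, so the direction by library was not assessed.

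CD8 T and NK barcodes differed from macrophages at both ends of the pathway, with more Smad7 and less Inhba, Tgfbr1, Ski and Tgfbi. In CD8 T barcodes, over the 4 libraries with at least 20 of them, 1 of 8 tested members was called higher and 4 lower, beside 16.8% higher and 19.7% lower among all 8551 genes. Smad7 was 4.55-fold higher (4.09 to 5.05). Its CD8 T libraries were at 140, 220, 159 and 170 CPM in suffixes 4, 6, 7 and 8, against 41.1, 29.2, 31.0 and 41.8 in the macrophages of the same libraries. Inhba was 7.40-fold lower, Tgfbr1 9.21-fold, Ski 2.80-fold and Tgfbi 13-fold. Tgfb1 and Tgfbr2 were close to their macrophage levels, with ratios of 0.963 (0.865 to 1.07) and 0.892 (0.783 to 1.01).

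The NK barcodes were set against macrophages in a comparison added after seeing the data. Of 9 members tested over 6 libraries, 2 were called higher and 4 lower, beside 11.5% higher and 18.5% lower among all 8348 genes. Smad7 was 4.13-fold higher (3.75 to 4.54) and Smad3 2.73-fold higher (2.05 to 3.58), at 17.9 against 6.57 CPM. Inhba was 4.40-fold lower, Tgfbr1 3.38-fold, Ski 2.68-fold and Tgfbi 16.0-fold. By library the Inhba ratio ran from 0.0205 in suffix 3 to 0.816 in suffix 6. Without suffix 6 the Inhba level in NK barcodes was 11.7 CPM, so the size of its fold is not set. Tgfb1 was higher in 6 of 6 libraries, with a ratio of 1.44 (1.34 to 1.56). After thinning to 1000 UMIs, Smad7 had a UMI in 3.54% of macrophage, 16.7% of CD8 T, 17.8% of NK and 30.6% of Foxp3 T barcodes (29.7%, 70.5%, 63.1% and 86.5% without thinning).

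Free RNA from macrophages can be read in barcodes of other cells, and was gauged by macrophage genes. C1qa in CD8 T and NK barcodes was at 3.37% and 2.99% of its macrophage level, C1qb at 4.36% and 2.89%, Lyz2 at 4.63% and 4.30%, and Apoe at 6.42% and 6.4%. In Foxp3 T barcodes C1qa was at 7.57% and Lyz2 at 8.21%. Tgfbi, at 7.69% (6.33 to 9.27) and 6.25% (5.20 to 7.45), lay above C1qa, C1qb and Lyz2 and overlapped the Apoe intervals (5.74 to 7.15 and 5.82 to 7.02). The part of free RNA in its level was not tested. Inhba was at 13.5% and 22.7%, and Ski at 35.7% and 37.3%. In the 114 CD8 T and 209 NK barcodes with no UMI of Csf1r or Adgre1 and at most 1 of C1qa and Lyz2, Tgfbi was at 2.31 and 6.74 CPM and Inhba at 8.48 and 1.84 CPM. Smad7 in these stricter sets was at 205 and 197 CPM, Tgfb1 at 144 and 244 and Tgfbr2 at 102 and 140. The same members were called against macrophages with the stricter sets, a gate applied to the calls after seeing the data. In the NK barcodes 1 barcode of suffix 6 held 88 of the 128 Inhba UMIs, and the others were at 11.8 CPM (8.42 to 16.1).

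Between NK and CD8 T barcodes, 1 of 8 tested members was called higher in NK and 0 lower, over 4 libraries, beside 3.25% higher and 4.53% lower among all 8006 genes. Smad3 was 4.89-fold higher (2.42 to 11.2), at 17.9 against 3.66 CPM, from 61 and 9 UMIs. Tgfb1 was higher in 4 of 4 libraries with a ratio of 1.5 (1.32 to 1.70), at 224 against 150 CPM. Smad7 had a ratio of 0.908 (0.798 to 1.03).

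**Figure D4:**
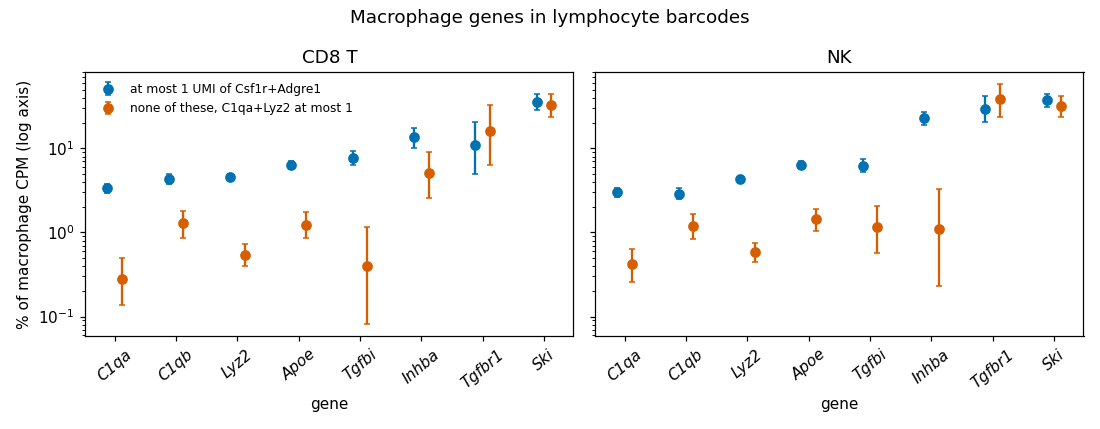
Levels of 4 macrophage genes and 4 members in CD8 T and NK barcodes, as a percent of the macrophage level (log axis), under the gate used here and the stricter gate. Bars are 95% intervals; Under the stricter gate, which itself limits C1qa and Lyz2, Tgfbi is at 0.394% in CD8 T and 1.15% in NK barcodes and Ski at 32.6% and 31.6%.

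The 37 Foxp3 T barcodes are few and shallow, and no library held 20 of them, so no gene was called and values are given with their intervals alone. Smad7 was at 363 against 172 CPM in CD8 T barcodes, a ratio of 2.11 (1.64 to 2.69). Ski and Skil had ratios of 2.36 (1.34 to 3.96) and 1.95 (1.38 to 2.69). Tgfbr2 was at 36.3 against 101 CPM, a ratio of 0.360 (0.154 to 0.720), and Tgfbr1 had a ratio of 7.43 (2.18 to 23.4) from 6 and 9 UMIs. Pmepa1, which restrains TGF-beta signalling, was at 376 against 42.7 CPM, a ratio of 8.81 (6.53 to 11.9). Lrrc32 (GARP), which docks latent TGF-beta on the surface of regulatory T cells, had 18 UMIs in Foxp3 T and 2 in CD8 T barcodes, a ratio of 100 (24.0 to 892). Itgb8, part of an integrin that releases TGF-beta, had 20 and 2 UMIs, a ratio of 111 (27.1 to 984). Itgae (CD103), an integrin chain induced by TGF-beta in T cells, had 49 and 3 UMIs, a ratio of 182 (58.8 to 913). These genes were picked by name from the wider list for this comparison. Others picked were Ldlrad4, Tgif1, Smad4 and Itgav, with ratios of 8.36, 2.74, 1.91 and 1.37. Among the members only Tgfbr2 had a ratio under 1, and no value over all genes is given for this pair. The CD8 T gate excluded barcodes with Ncr1 and the Foxp3 T gate did not. Gzma was at 1228 CPM in these Foxp3 T barcodes against 89.8 in CD8 T barcodes, and macrophage and monocyte genes were also higher: C1qa at 231 against 103 CPM, Lyz2 at 512 against 289 and Vcan at 118 against 9.35. The part of NK, macrophage and monocyte transcripts in these ratios was not tested.

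Beyond the members, 49 further genes of a wider pathway list were read. In the C1qa split, 23 were tested, with 2 higher and 7 lower, beside 5.00% and 3.94% of all genes tested, and a median ratio of 0.672 beside 1.05. Pmepa1 was at 129 against 29.7 CPM, 4.35-fold higher, and Eng, a co-receptor, at 25 against 10.8, 2.32-fold higher. Thbs1, thrombospondin, which can activate latent TGF-beta, was 6.78-fold lower at 61.7 against 418 CPM. The matrix genes Vcan and Fn1 were 8.79-fold and 2.33-fold lower, the former being also a monocyte marker. Id3, Id1, Bambi and the cell cycle inhibitor Cdkn1a were 3.1-fold, 2.45-fold, 2.39-fold and 2.16-fold lower. Id1 and Id3 are best known as targets of the related BMP ligands, and Bambi is a decoy receptor.

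In the Ly6c2 split 23 of the wider list were tested, with 5 higher and 1 lower, beside 3.01% and 5.40% of all genes, and a median ratio of 1.2 beside 0.959. Thbs1 was 6.50-fold higher at 480 against 73.7 CPM, Vcan 8.18-fold, Id3 3.01-fold, Id1 2.33-fold and Bambi 2.08-fold. Pmepa1 was 7.06-fold lower at 16.9 against 119 CPM. In the Mmp12 split 21 were tested, and Fn1 alone was called, beside 1.35% higher and 0.877% lower among all genes, 2.18-fold higher at 568 against 260 CPM. Of 22 tested in the S100a9-high barcodes, Id1 alone was called (1.17% higher among all genes), at 17.1 against 7.77 CPM in macrophages. In the Flt3 barcodes 23 were tested, with 1 higher and 3 lower, beside 6.47% higher and 2.59% lower among all genes. Itgae was higher, at 41.2 against 0.594 CPM, and Thbs1, Eng and Vcan were lower by 3.13-fold, 2.11-fold and 2.88-fold.

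In CD8 T barcodes 3 of 23 genes of the wider list were higher than in macrophages and 11 lower, beside 16.8% and 19.7% of all genes, with a median ratio of 0.455 beside 1.08. In NK barcodes 3 of 23 were higher and 9 lower, beside 11.5% and 18.5% of all genes, with a median of 0.618 beside 0.988. Itgav, the integrin chain that pairs with Itgb8, was higher in both, at 165 CPM in CD8 T and 119 in NK barcodes against 50.7 in macrophages, as was the co-repressor Tgif2, at 17.1 and 15 against 2.10. Gdf11, a ligand, was higher in CD8 T barcodes at 10.2 against 0.272 CPM, and Ltbp3, a latency-binding protein, in NK barcodes at 11.7 against 3.02. Nrros, which holds latent TGF-beta on myeloid cells, was at 158 CPM in macrophages, 21.1 in CD8 T and 22.0 in NK barcodes. Cdkn1a, Fn1, Id3, Thbs1, Eng, Acvr1 and Acvrl1 were lower in both, and Furin, Acvr2a and Bambi were called lower in CD8 T and Vcan in NK barcodes. Of the genes with at least 50 CPM in some group but no call in these comparisons, Id2 ranged from 695 CPM in macrophage to 1015 in CD8 T barcodes, Tgif1 from 129 in NK to 363 in Foxp3 T, Smad4 from 50.8 in macrophage to 104 in Foxp3 T and Klf10 from 25.5 in NK to 50 in S100a9-high barcodes.

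**Figure D5:**
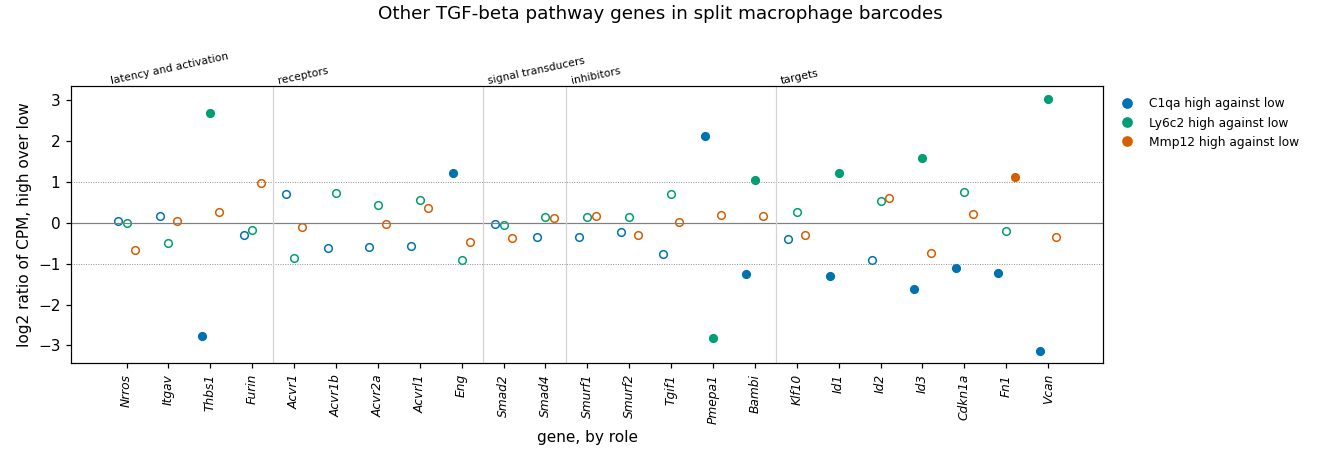
Ratios of wider pathway genes (log2 axis, dotted lines at 2-fold) between macrophage barcodes high and low in C1qa, Ly6c2 or Mmp12, ordered by role. Filled points are genes called and open points genes tested but not called; Vcan (8.79-fold) and Thbs1 (6.78-fold) are the lowest with C1qa and Pmepa1 (4.35-fold) the highest.

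The genes whose levels varied most like each member were found over 12 barcode groups that share no barcode, among 4932 genes. These correlations describe groups that share libraries and have unequal depth. The genes named are the highest of 4932 over only 12 groups, and how high unrelated genes would reach was not tested. Inhba varied most like Upp1 (r = 0.920), Slc2a1 (0.914) and Slc7a11 (0.910). Tgfbi varied most like Pirb (0.991), Tor3a (0.989) and Pira2 (0.987), of which Pirb and Pira2 are related receptors of myeloid cells. Tgfbr2 varied most like Ndufa12 (0.917), Prkacb (0.909) and Prrc1 (0.879), and Tgfbr1 like Rnasek (0.974), Napa (0.928) and Tlr7 (0.913). Smad7 varied most like Foxo1 (0.957), Bod1l (0.956) and 5031425E22Rik (0.951), Ski like Plec (0.973), Serinc1 (0.950) and Agpat5 (0.936), Skil like Fibp (0.869), Usp18 (0.827) and Sharpin (0.822), and Tgfb1 like Hopx (0.889), Senp2 (0.886) and Cript (0.877). Tgfb3 and Smad3 did not reach the 50 CPM used for this comparison.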

How the data were processed

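Single-cell libraries were prepared by the submitters from CD45-enriched cells of 6 CT26 tumors with the 10x 3′ kit. The authors deposited 1 matrix of raw UMI counts, and per the labels the processing notes name Cell Ranger 1.2, Seurat 3.1.5, R 4.0.1 and the mm10 build. The kit reads transcript ends, so isoforms were not separated. Barcode suffixes match no sample label, so the matrix was treated as 1 pooled sample, the 9235 barcode columns were assigned to no treatment, and the libraries served only to show spread. The members and the wider list (59 of 60 genes found) were chosen with earlier results of these data known, and some listed genes are not reported here.

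Groups were gated on raw UMIs. No doublet caller was run, but 1684 barcodes with Cd3e or Ncr1 and more than 1 UMI of Csf1r and Adgre1 were left out. Counts were summed per group and divided by the group's total. Genes at 10 CPM or more on either side were called at 2-fold in the same direction in each library with at least 20 barcodes on both sides. Wider-list genes were named where called or at 50 CPM or more in a group, and similar genes by the 3 highest Pearson correlations of log2(CPM + 10). The joint classes, the NK against macrophage comparison and the removal of single barcodes were chosen after seeing the data. All 10 members had 1 GENCODE M21 gene model and no same-strand overlap with another gene. Python 3.11.15, numpy 2.4.6, scipy 1.17.1 and matplotlib 3.10.9 were used, and the calling was tested on simulated data. Alternatives covered the gate, fold, CPM minimum, depth, scaling, split rule and each library left out.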

Additional observations from a re-analysis of the deposited data

Results flagged for a closer look

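In 7 of 100 series of 6 libraries (10 members in macrophage, S100a9-high, Flt3 and NK barcodes and in the high and low classes of C1qa, Ly6c2 and Mmp12), 1 library stood apart from the others, where chance marks about 1 in 20. The classes share barcodes, so these series are not independent.

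Of these, 3 concern the co-repressor Ski in the library with suffix 5. In C1qa-low macrophage barcodes it was at 110 CPM, with the nearest library at 82.5. In Mmp12-high macrophage barcodes it was at 143 CPM, with the nearest at 102, and in NK barcodes at 121 with the nearest at 48.2. The same library had the highest Ski level in macrophage barcodes overall (144 CPM, next 105), in C1qa-high (155, next 113), in Ly6c2-low (154, next 107) and in S100a9-high barcodes (139, next 102), without standing apart by the same measure. In Flt3 barcodes suffix 7 was the highest, at 84.6 CPM against 77.1 in suffix 5. The library with suffix 5 had the lowest median depth, 7270 UMIs per barcode, against 11013 to 16125 in the others. Its NK barcodes also held Lyz2 at 1910 CPM, against 138 to 341 in the others, and C1qa at 462, against 60.4 to 106. The parts of depth and of macrophage transcripts were not tested.

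Tgfbi in NK barcodes was also highest in suffix 5, at 149 CPM with the nearest library at 53.7. Macrophage genes were highest in the same barcodes, with Lyz2 at 1910, C1qa at 462 and Apoe at 660 CPM. The other NK libraries were at 138 to 341, 60.4 to 106 and 53.7 to 221 CPM. The part of macrophage transcripts in the Tgfbi level was not tested. Inhba in NK barcodes was at 164 CPM in suffix 6, with the nearest at 28.4, and 1 barcode there held 88 of the 128 Inhba UMIs of all NK barcodes. Inhba in Flt3 barcodes was at 181 CPM in suffix 8, with the nearest at 74.3. Tgfb1 in Ly6c2-low macrophage barcodes was at 169 CPM in suffix 4, with the nearest at 144. The libraries mix unknown treatments, so a library that stands apart cannot be told apart from a treated or control tumor.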

How the results depend on the processing

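No called member was called in the other direction under the alternatives listed above. The crossing with C1qa is not among them: within C1qa-low barcodes the pooled Inhba level was 376 CPM with high and 462 with low Ly6c2. No direction by library was set there. At 1.5-fold, the members called went from 2 to 4 in the C1qa split (adding Tgfbr1 and Tgfbi), from 2 to 3 in the Ly6c2 split (adding Tgfbi), from 5 to 6 in CD8 T against macrophage barcodes (adding Skil), from 0 to 2 in the Flt3 barcodes (Smad7 higher, Tgfbi lower) and from 1 to 2 in NK against CD8 T barcodes (adding Tgfb1). Calls among all genes at 1.5-fold were 1557 in the C1qa split (696 at 2-fold), 1423 in the Ly6c2 split (653), 705 in the Mmp12 split (170), 171 in S100a9-high (89), 1583 in Flt3 (734) and 1253 in NK against CD8 T barcodes (623). Between the upper and lower of 3 equal tiers within each library, the Ly6c2 split called 1 member (2 in the report) and 287 genes, and the Mmp12 split called 0 members (3 in the report) and 17 genes. For Mmp12, and for Ly6c2 in some libraries, the upper tier also held barcodes of the low class. With a minimum of 20 CPM, NK against CD8 T called 0 members, since Smad3 at 17.9 CPM was not tested. The same minimum ended the Smad3 call in NK against macrophage barcodes (6 to 5 members) and the Tgfb3 call in the Mmp12 split (3 to 2). Leaving out 1 library at a time gave 0 to 1 members in Flt3 barcodes (Tgfbi without suffix 4, Inhba without suffix 5) and 1 to 2 in NK against CD8 T barcodes (Tgfbr1 added without suffix 6). In the C1qa split Tgfb3 was also called without suffix 5, without suffix 8 and at 5 CPM. At 5 CPM Tgfb3 was also called lower against macrophages in CD8 T (5 to 6 members) and NK barcodes (6 to 7). The lymphocyte Inhba level moved furthest with the gate, to 1.84 CPM in NK barcodes under the stricter gate, and to 11.7 CPM without suffix 6. With at least 5000 UMIs a barcode, all 30 member ratios of the macrophage splits stayed within their intervals. With the tiers 15 of 30 moved outside them, and with 1 library left out 27 of 180 did. Of 60 group levels, 28 left their intervals when averaged over barcodes and 17 as the median of libraries. Of the 20 S100a9-high and Flt3 levels, 18 did with at most 1 UMI of Csf1r and Adgre1. No paired analysis was possible because no barcode could be tied to a numbered tumor of either treatment. Barcode groups were instead compared within each library, without a test. Foxp3 T barcodes, at 220657 UMIs in all, limit what can be said of Smad3, Tgfb3 and the receptors there.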

Other observations

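Barcodes outside the 6 groups held 41.9% of the UMIs of all genes. Their shares of Inhba (45.8%) and Tgfb1 UMIs (43.6%) were near that value, and their share of Smad7 UMIs was 56.3%. Of these 3680 barcodes, 1684 had Cd3e or Ncr1 together with more than 1 UMI of Csf1r and Adgre1, at a median of 25488 UMIs, and 1824 had neither lymphocyte gene and fewer than 3 UMIs of Csf1r and Adgre1, at a median of 4887.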
